A study of Mus musculus with 27 samples.

Results

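The 10 genes of the MHC class I antigen presentation pathway described here were H2-K1, H2-D1, B2m, Tap1, Tap2, Tapbp, Psmb8, Psmb9, Psmb10 and Nlrc5. They were chosen by name, for their place in the pathway, from the 43346 genes of the normalized expression table of mouse lacrimal glands, and all 10 were present and passed the filter on low values, with 13762 genes tested in all. The lacrimal gland makes the watery part of tears. In this model, an injection of the cytokine interleukin-1α (IL-1α) into the gland injures it, and the gland then repairs itself.

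All mice were wild type BALB/c females, 8 to 10 weeks old by the labels, with 3 mice in each of 9 groups. One group was left uninjured (day 0), 7 groups received 1 µg of IL-1α with the glands taken on each of days 1 to 5, on day 7 or on day 14, and one group received saline, with the glands taken at day 14. The table held 26 libraries of polyadenylated RNA from whole glands, 1 mouse each, and day 7 replicate 2 was not analysed here. The tests used 23 of them, because the study had set aside day 2 replicate 3, day 4 replicate 1 and day 7 replicate 1 as outliers by their expression, which left 2, 2 and 1 libraries in those groups. The libraries held between 9476948 and 13103440 estimated counts, of which the 10 most abundant genes took 51.3% to 75.3%. The spread of the single day 7 library was taken to be that of the other groups. There was no saline group before day 14, so that the response to the injection itself could not be told apart from that to IL-1α at the earlier days.

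Almost every nucleated cell shows short peptides from its own proteins on class I molecules, where CD8 T cells read them. The peptides are cut by the proteasome, whose catalytic subunits are exchanged for the immunoproteasome subunits encoded by Psmb8, Psmb9 and Psmb10 under interferon. The TAP1 and TAP2 proteins form the pump that carries the peptides into the endoplasmic reticulum, tapasin (Tapbp) holds the empty class I molecule at the pump, and the molecule itself is a heavy chain (here H2-K1 or H2-D1) with β2-microglobulin (B2m). NLRC5 is a transcription factor that acts on the promoters of class I genes and of several of these partners.

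In the GRCm38 annotation, 7 of the 10 genes lay on chromosome 17 within 1352 kb, from Tapbp at its start to H2-D1 at its end, and Psmb9, Tap1, Psmb8 and Tap2 lay there side by side. B2m was on chromosome 2, and Psmb10 and Nlrc5 were on chromosome 8. Promoter windows, from 250 bases before to 50 bases after the start site, were taken from RefSeq (GRCm38.p6) for 8 of the 10 genes, all but Tap2 and Nlrc5. The windows of the heavy chain genes, of B2m and of Tap1 are printed 5′ to 3′ on the strand of the gene, as examples. H2-K1 and H2-D1 encode proteins of the same kind, and their transcripts share 141 stretches of 50 bases. Capitals mark matches to the interferon-stimulated response element core (the run of 10 capitals in B2m, with its middle 2 letters free), TTCNNNGAA (gamma-activated site), an NF-kB site (the run of 10 capitals in H2-K1 and in H2-D1), CCAAT and TGACG, searched on both strands, and no marked match overlaps another. The window of H2-K1 is chr17:34000298-34000597 (minus strand), that of H2-D1 is chr17:35262844-35263143 (plus), that of B2m is chr2:122147437-122147736 (plus) and that of Tap1 is chr17:34187306-34187605 (plus).
H2-K1: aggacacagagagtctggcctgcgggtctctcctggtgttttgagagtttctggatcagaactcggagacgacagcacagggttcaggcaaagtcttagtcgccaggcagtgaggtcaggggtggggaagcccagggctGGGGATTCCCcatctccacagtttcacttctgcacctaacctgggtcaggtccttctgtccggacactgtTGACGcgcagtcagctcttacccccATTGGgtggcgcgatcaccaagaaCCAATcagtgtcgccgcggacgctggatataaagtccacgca
H2-D1: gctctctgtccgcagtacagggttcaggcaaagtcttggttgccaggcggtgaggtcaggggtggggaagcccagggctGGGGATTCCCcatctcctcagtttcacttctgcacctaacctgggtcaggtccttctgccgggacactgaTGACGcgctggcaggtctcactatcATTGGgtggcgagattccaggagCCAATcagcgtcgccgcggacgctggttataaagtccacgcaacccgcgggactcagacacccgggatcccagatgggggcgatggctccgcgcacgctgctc
B2m: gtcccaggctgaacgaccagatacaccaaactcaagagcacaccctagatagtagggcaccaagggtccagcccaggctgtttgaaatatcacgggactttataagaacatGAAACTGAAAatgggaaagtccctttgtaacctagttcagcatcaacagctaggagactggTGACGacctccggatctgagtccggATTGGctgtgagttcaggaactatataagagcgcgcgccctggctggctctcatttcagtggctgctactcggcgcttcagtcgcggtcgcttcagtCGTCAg
Tap1: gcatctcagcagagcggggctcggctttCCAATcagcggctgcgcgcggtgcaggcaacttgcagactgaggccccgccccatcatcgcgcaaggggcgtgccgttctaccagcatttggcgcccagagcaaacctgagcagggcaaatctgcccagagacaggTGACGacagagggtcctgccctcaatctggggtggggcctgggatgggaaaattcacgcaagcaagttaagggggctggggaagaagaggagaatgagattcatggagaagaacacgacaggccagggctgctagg

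The NF-kB site was found in both heavy chain windows, at -111 in H2-K1 and -171 in H2-D1, and in 0.107% of the 32851 windows of all genes. The H2-K1 and H2-D1 windows hold much the same letters, shifted. The NF-kB site begins at base 140 of the H2-K1 window and base 80 of the H2-D1 window, and TGACG at 210 and 150. The different distances therefore follow from where the annotated starts lie, and matches common to these windows are not separate finds. The interferon-stimulated response element core, in the pattern searched, was found in the B2m window alone of the 8 (3.44% of all windows). The gamma-activated site was found in Psmb8 alone (8.3%), at -97. Other forms of these interferon sites were not searched either. Windows without a match, those of H2-K1 and H2-D1 among them, may therefore still hold one. CCAAT stood in 6 of the 8 windows (37.4% of all windows) and TGACG in 5 (20.8%). The Psmb10 window held no match to any of the patterns searched. In H2-K1, H2-D1 and B2m, TGACG was followed on the same strand by ATTGG, the reverse complement of CCAAT, with 20 bases between them. The H2-K1 and H2-D1 matches lie in the sequence that their windows share. This spacing, chosen after its positions were seen, occurred in 0.0944% of all windows (31 windows of 27 genes, among them H2-M3, another class I gene). Tap1 and Psmb9 are read in opposite directions from start sites 226 bases apart, and 275 bases of their windows are the same DNA, so that their CCAAT and TGACG matches are the same letters read on either strand. These matches are descriptions of the letters in the windows and not evidence of binding.

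All 10 genes rose at day 1 after IL-1α, by 2.50-fold for H2-D1 to 6.43-fold for Tap1. At day 2, 9 of the 10 were called higher. None was at day 3, and days 4 and 5 had 4 each. None was called at day 7, at day 14 or in the saline glands. Values are normalized expression as the authors deposited it (estimated read counts per gene divided by 1 size factor per library), so that they compare a gene between libraries but not genes with each other. Changes are differences of log2(value + 1) fitted with limma for all genes in 1 model, with Benjamini-Hochberg adjustment, and genes were counted as called where the adjusted p was 0.05 or less and the change 2-fold or more. On that rule 11.3% of the 13762 genes tested were called higher at day 1, against 10 of 10 here. The median log2 fold change of the 10 genes was 2.04 at day 1, and that of all tested genes was 0.03.

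**Figure D1:**
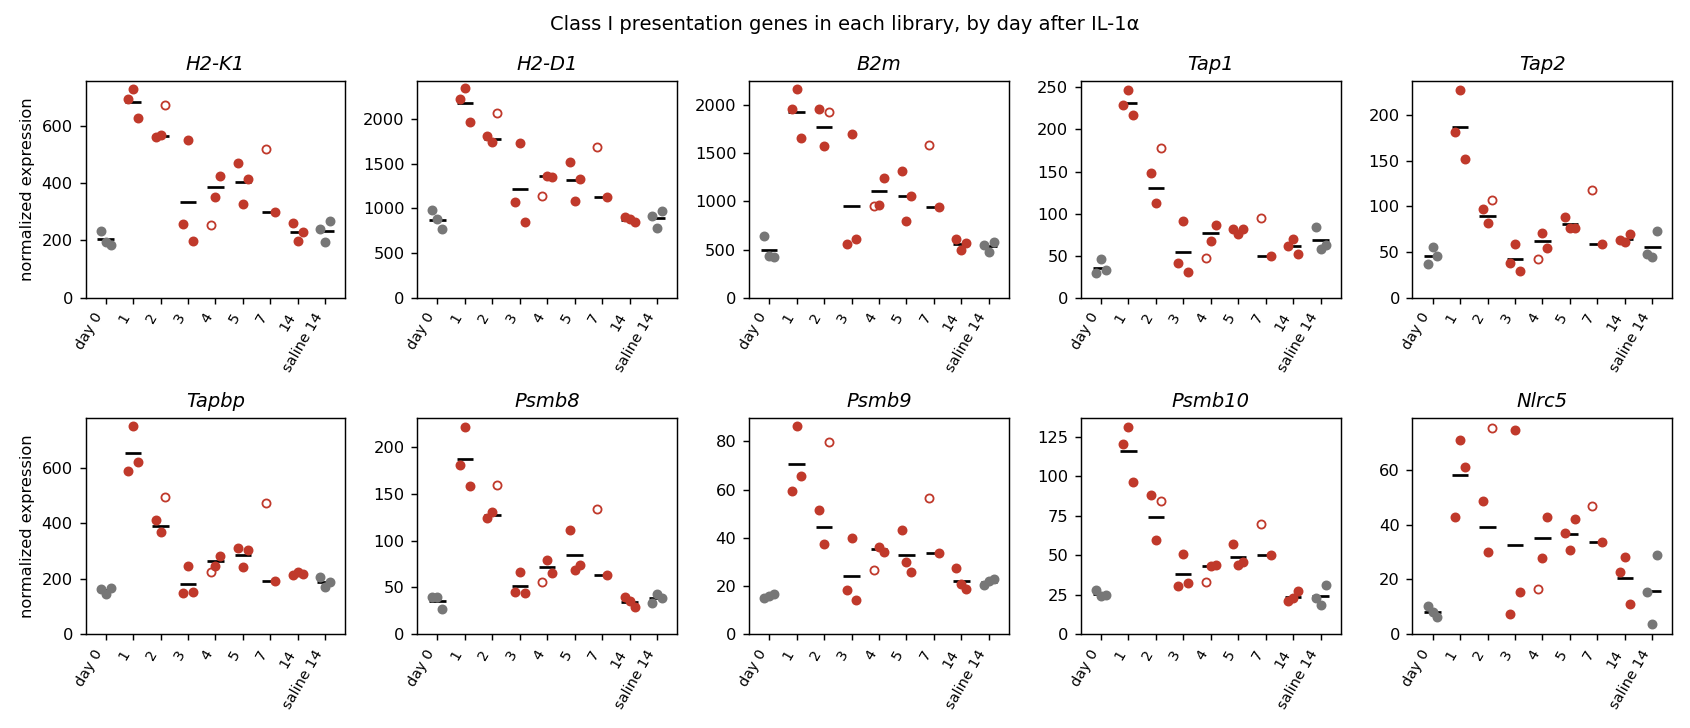
Normalized expression (y axis, linear, from 0) of each class I presentation gene in each library, by day (x axis). Filled points are libraries used in the tests, open points the 3 libraries the study set aside, grey points uninjured or saline glands, and black bars the means of the filled points. For each of the 10 genes the 3 day 1 libraries lie above all 6 libraries without IL-1α. Of all tested genes, 26.7% had every day 1 library above the uninjured ones, and the share against all 6 was not computed.

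H2-K1 (chr17:33996017-34000347), a classical heavy chain, measured 231, 195 and 185 in the 3 uninjured glands, 692, 729 and 628 at day 1, and 562 and 569 at day 2. At day 3 it measured 258, 549 and 198. The day 1 and day 2 libraries lay above every uninjured library, and at day 3 only replicate 2 lay far above them. The log2 fold change against uninjured glands was 1.74 at day 1 (SE 0.24, limma adjusted p = 4.6e-06) and 1.47 at day 2 (SE 0.27, adjusted p = 0.000263).

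H2-D1 (chr17:35262730-35267499), the other classical heavy chain in this annotation, measured 981, 876 and 764 in uninjured glands, 2226, 2345 and 1964 at day 1, and 1809.6 and 1747 at day 2. It had the smallest change of the 10 genes at day 1, a log2 fold change of 1.32 (SE 0.17, limma adjusted p = 2.79e-06). At day 2 the change was 1.03 (SE 0.19), just past 2-fold, and it was 0.94 and no longer called without uninjured replicate 3. At day 3 its values were 1073, 1734 and 853, again with replicate 2 alone close to the day 2 libraries. BALB/c mice carry other alleles of the class I genes than the C57BL/6 mouse of the reference genome, and 9.63% of the 50-base stretches of the H2-K1 transcripts and 12.8% of those of H2-D1 also occur in transcripts of other genes in the reference annotation. The split of reads among the heavy chain genes is therefore uncertain, and the share for the other 8 genes was at most 2.87%.

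B2m (chr2:122147686-122153083), the light chain that every class I heavy chain needs, measured 637, 431 and 422 in uninjured glands and 1965, 2163 and 1658 at day 1. Its values at day 2 were 1958 and 1578, within the range of day 1 for one library and just under it for the other. The log2 fold change was 1.97 at day 1 (SE 0.28, limma adjusted p = 9.44e-06) and 1.85 at day 2 (SE 0.32, adjusted p = 0.000169). At day 3 replicate 2 measured 1699.9, and replicates 1 and 3 measured 554 and 607, inside the range of the uninjured glands.

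Tap1 (chr17:34187553-34197225), which encodes one subunit of the peptide pump, measured 28.9, 45.7 and 32.5 in uninjured glands and 229.6, 247 and 217 at day 1. At day 2 it measured 148 and 113, below all day 1 libraries, and at day 3 it measured 40.9, 91.4 and 30.6. Its log2 fold change of 2.69 (SE 0.27, limma adjusted p = 8.9e-08) was the highest of the 10 genes at day 1, and it was 1.85 at day 2 (SE 0.30, adjusted p = 9.5e-05). Tap1 also stood higher in the saline glands, at 84.3, 57.7 and 62.2, than in any uninjured gland. The saline change of 0.92 was not called (adjusted p = 0.0575), and it was called, at 1.11, without uninjured replicate 2.

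Tap2 (chr17:34203527-34216321), the partner subunit of the pump, measured 36.9, 56.0 and 45.5 in uninjured glands, 181, 227 and 152 at day 1, and 97.5 and 81.7 at day 2. The groups did not overlap. Its log2 fold change was 2.00 at day 1 (SE 0.23, limma adjusted p = 4.55e-07). At day 2 it was 0.96 (SE 0.25, adjusted p = 0.00672), which passed the test but not the 2-fold minimum, and it was called without uninjured replicate 2 (1.10), without day 2 replicate 2 (1.08) and with all 26 libraries (1.04). At day 3 Tap2 measured 38.1, 58.9 and 29.6, with its mean below that of the uninjured glands.

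Tapbp (chr17:33915899-33929292), which encodes tapasin, had the smallest standard error of the 10 genes at day 1 (0.15). It measured 165, 147 and 166 in uninjured glands, 589, 751 and 619.9 at day 1, and 413 and 369 at day 2. The log2 fold change was 2.02 at day 1 (limma adjusted p = 1.82e-09) and 1.29 at day 2. At day 3 it measured 149.6, 246 and 153, so that replicates 1 and 3 lay among the uninjured glands.

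Psmb8 (chr17:34197721-34201454), which encodes the immunoproteasome subunit that replaces the product of Psmb5, measured 40.4, 40.0 and 27.3 in uninjured glands and 181, 221 and 158 at day 1. It measured 124 and 131 at day 2, and at day 3 its 3 libraries, at 45.5, 66.7 and 43.9, all lay above the uninjured ones. Its log2 fold change was 2.35 at day 1 (SE 0.21, limma adjusted p = 1.79e-08) and 1.82 at day 2 (SE 0.23). Psmb8 and Psmb10 were the only 2 of the 10 genes whose day 3 libraries did not overlap the uninjured ones, against 12% of all tested genes.

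Psmb9 (chr17:34181987-34187764), whose product replaces that of Psmb6, measured 15.0, 16.0 and 16.9 in uninjured glands, 59.4, 86.2 and 65.8 at day 1, and 51.7 and 37.4 at day 2. In the day 3 libraries it measured 18.6, 39.8 and 14.3, with replicate 3 below all uninjured glands. The log2 fold change was 2.06 at day 1 (SE 0.28, limma adjusted p = 5.46e-06) and 1.41 at day 2 (SE 0.32, adjusted p = 0.00198). Without day 2 replicate 1 the day 2 change was 1.18 and no longer called.

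Psmb10 (chr8:105935735-105938444), whose product replaces that of Psmb7, lies outside the MHC but followed the same course. It measured 28.1, 24.01 and 24.7 in uninjured glands, 120.3, 131 and 96.5 at day 1, and 88.5 and 60.05 at day 2. Its log2 fold change was 2.13 at day 1 (SE 0.22, limma adjusted p = 1.38e-07) and 1.48 at day 2 (SE 0.25). At day 3 it measured 30.7, 51.1 and 32.6, all above the uninjured glands.

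Nlrc5 (chr8:94434356-94527272), the regulator, had the largest standard errors of the 10 genes. It measured 10.5, 8.00 and 6.50 in uninjured glands, 42.7, 70.8 and 61.1 at day 1, and 48.5 and 30.0 at day 2. The log2 fold change was 2.66 at day 1, with an SE of 0.62 (limma adjusted p = 0.00149), and 2.09 at day 2 (SE 0.69, adjusted p = 0.0255). The day 2 call was lost when either day 2 library was left out (adjusted p = 0.192 without replicate 1 and 0.0575 without replicate 2), and also without uninjured replicate 2 (0.0504) or 3 (0.0633), without the filter on low values (0.0755) and against the saline glands (0.111). In the saline glands Nlrc5 ranged from 3.69 to 28.8, wider than the range of the uninjured glands.

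**Figure D2:**
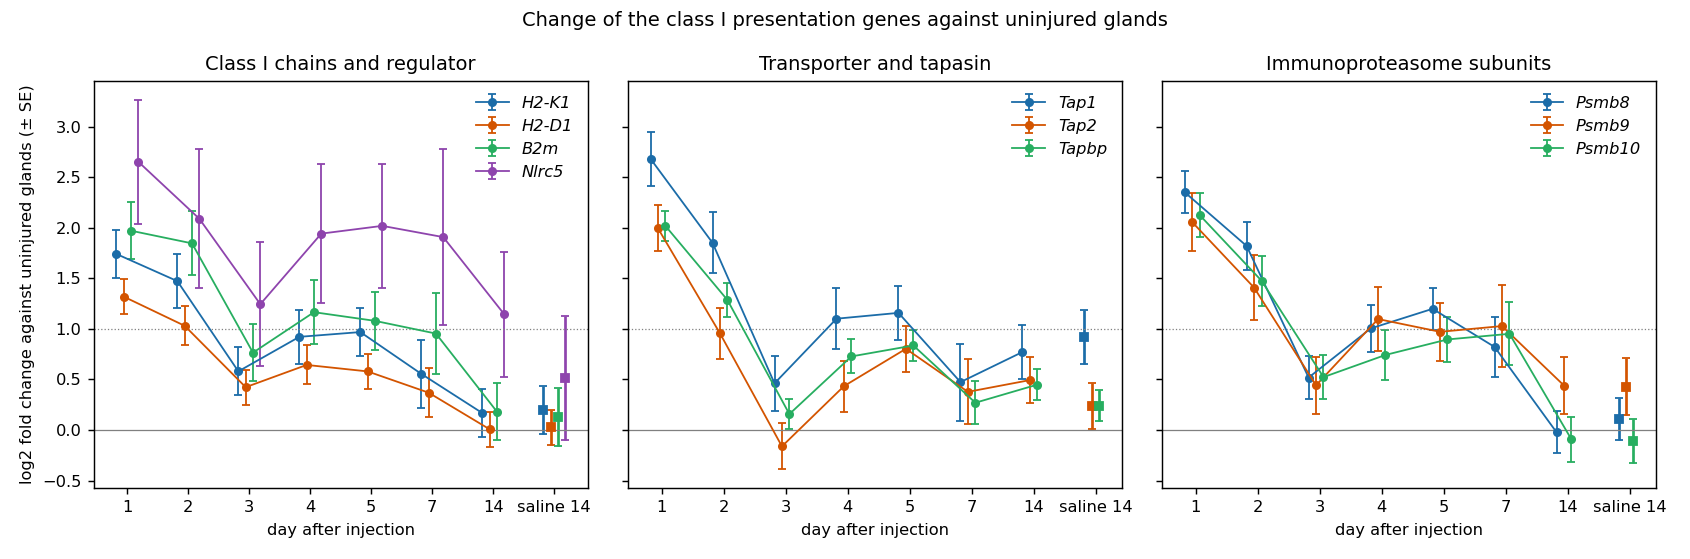
Fitted log2 fold change against uninjured glands (y axis) of the class I presentation genes at each day after injection (x axis), with bars of 1 SE; circles are IL-1α groups, squares the saline group, and the dotted line marks a 2-fold change. At day 1 all 10 genes lie above the dotted line, from 1.32 for H2-D1 to 2.69 for Tap1.

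At day 2, 11% of all tested genes were called higher against uninjured glands, compared with 9 of these 10, and the median log2 fold change of the 10 was 1.48. Every one of the 10 had both day 2 libraries above all 3 uninjured ones, a pattern seen in 28.3% of all tested genes. Directly against day 1, day 2 was lower in each of the 10 genes, with a median difference of -0.61. Tap2 alone was called, with a log2 difference of -1.04 (SE 0.25, limma adjusted p = 0.0136), where 0.632% of all genes were called lower. That call was lost when day 1 replicate 2 (-0.89), day 2 replicate 1 (-1.17) or day 2 replicate 2 (-0.91) was left out, and with all 26 libraries (-0.96). Tapbp passed the test without reaching 2-fold (-0.73, limma adjusted p = 0.00901). Markers of skeletal muscle summed to 1704 and 1902 in the 2 day 2 libraries and to 11.7, 25.2 and 482 in the uninjured ones. The study reported muscle-related genes that rose at this stage, and stained some of their proteins in cells inside the gland. At day 14 after IL-1α the marker sums ranged from 47.2 to 1716. The source of the muscle RNA, and its part in the day 2 class I values, was not tested.

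Between day 2 and day 3 the genes fell together. The median log2 difference was -1.02, and 5 of the 10 genes were called lower, where 5.81% of all tested genes were. Tap1 fell by 1.39 on the log2 scale (SE 0.30, limma adjusted p = 0.00325), Psmb8 by 1.30 (adjusted p = 0.000718), Tapbp by 1.13 (adjusted p = 0.000133), Tap2 by 1.12 (adjusted p = 0.00453) and B2m by 1.08 (adjusted p = 0.0239). H2-K1, H2-D1, Psmb9 and Psmb10 passed the test with less than a 2-fold change, and Nlrc5 did not pass it. The count rested on single libraries: it was 2 without day 2 replicate 1 (Tap1, Tap2 and B2m lost), 3 without day 3 replicate 3 (Tap2 at -0.90 and B2m at -0.86 lost) and 8 without day 3 replicate 2 (H2-K1 at -1.32, Psmb9 at -1.38 and Psmb10 at -1.18 gained). Without day 3 replicate 1 B2m was -0.79 and lost, and without day 2 replicate 2 B2m was lost (-1.24, adjusted p = 0.0634) and Psmb10 gained (-1.23). The B2m call was also lost without the filter on low values (adjusted p = 0.0837), without the trend in the variance (0.0542) and in a fit of the 2 groups alone (0.159), which lost Tap1 too (0.0695).

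Day 3 replicate 2 stood apart from the other 2 libraries of its group for all 10 genes. It was at least 2-fold above their mean for 5 of the 10, H2-K1 (2.40-fold), B2m (2.93-fold), Tap1 (2.51-fold), Psmb9 (2.34-fold) and Nlrc5 (74.5 against a mean of 11.4), and for 4.35% of all tested genes. The median log2 difference was 1.04 over the 10 genes and -0.01 over all tested genes. The summed expression of 3 leukocyte markers (Ptprc, Coro1a and Laptm5) was 376, 360 and 379 in the 3 day 3 libraries. The same library held far more RNA of salivary marker genes than any other. The salivary protein gene Bpifa2 took 11.6% of its total, and the 5 salivary markers summed to 2123473, with 462271 in the next highest library, day 4 replicate 3. The source of that RNA was not tested. Whether that RNA, or the white blood cells of the gland, had a part in the higher class I values was not tested either.

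**Figure D3:**
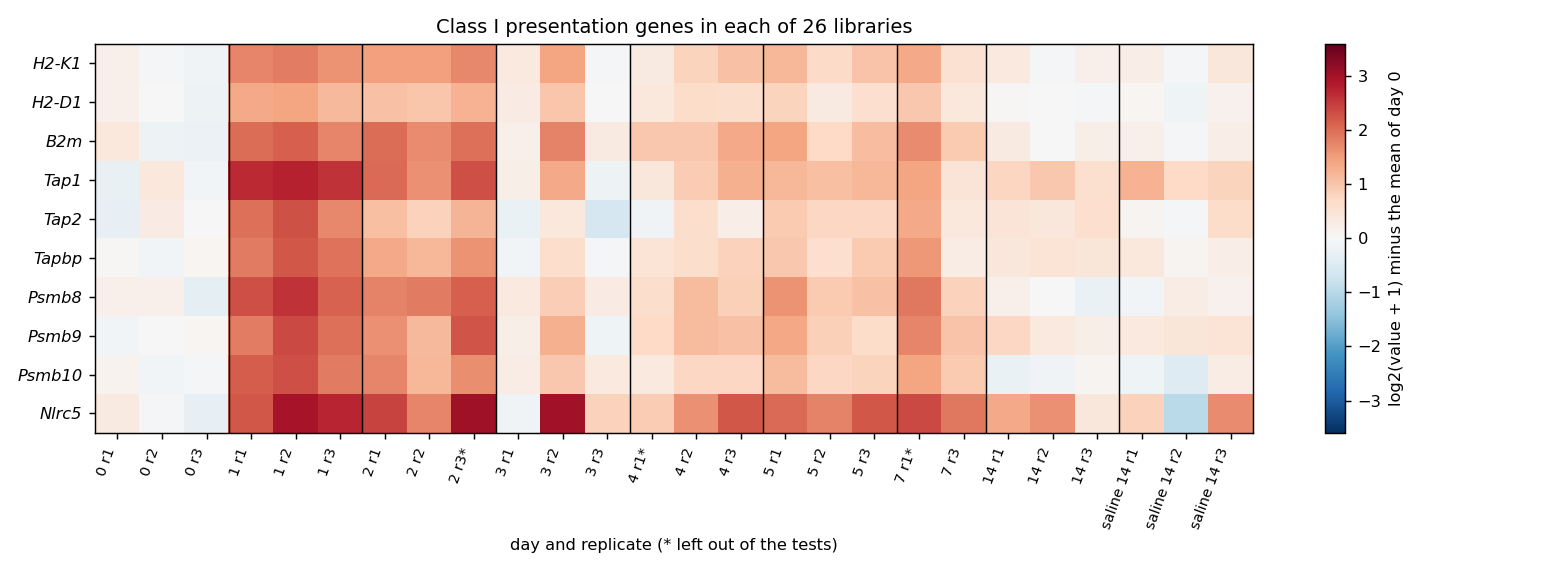
Difference of log2(value + 1) from the mean of the 3 uninjured glands (color) for the 10 class I presentation genes (rows) in each of the 26 libraries (columns, by day and replicate; an asterisk marks the 3 libraries left out of the tests). Day 3 replicate 2 is redder than day 3 replicates 1 and 3 in every row.

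Against uninjured glands no gene was called at day 3, where 2.57% of all tested genes were called higher, and at an unadjusted p under 0.05 there were 5 of the 10 (H2-K1, H2-D1, B2m, Psmb8 and Psmb10). B2m was called, at 1.06, without day 3 replicate 1. The median log2 fold change was 0.49 at day 3, 0.96 at day 4 and 0.97 at day 5.

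At day 4 the called genes were B2m (log2 fold change 1.17, limma adjusted p = 0.0154), Tap1 (1.10, adjusted p = 0.0157), Psmb9 (1.10, adjusted p = 0.0207) and Psmb8 (1.01, adjusted p = 0.00594), where 6.97% of all tested genes were called higher. H2-K1 measured 352 and 423 and H2-D1 1362 and 1356 in the 2 libraries, all above the uninjured glands, at changes of 0.92 and 0.64. The day 4 calls rested on few libraries: none of the 10 was called without replicate 2, 1 without replicate 3, and 1 with the library the study had set aside put back, in which B2m measured 957 and Tap1 47.0. Without uninjured replicate 1 Tap1 (0.97) and Psmb9 (1.06, adjusted p = 0.0558) were lost and H2-K1 (1.02) was gained, and without uninjured replicate 3 Psmb8 (0.82) was lost. Leaving out day 3 replicate 2, which enters the estimate of the spread alone, gave 5.

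At day 5 B2m (1.08, limma adjusted p = 0.00781), Tap1 (1.16, adjusted p = 0.00342), Psmb8 (1.20, adjusted p = 0.000361) and Nlrc5 (2.02, adjusted p = 0.0187) were called, where 9.8% of all tested genes were called higher. The other 6 genes passed the test without reaching 2-fold, with changes from 0.58 for H2-D1 to 0.97 for Psmb9. All 10 genes had the 3 day 5 libraries above every uninjured library, against 21.1% of all tested genes. The count was 2 without day 5 replicate 1 (B2m at 0.91 and Psmb8 at 0.99 lost) and 6 without day 5 replicate 2 (H2-K1 at 1.11 and Psmb9 at 1.02 gained). B2m was lost without uninjured replicate 2 (0.99) or 3 (0.98), Nlrc5 without uninjured replicate 3 (adjusted p = 0.0532) or day 5 replicate 3 (0.0600), and Psmb9 was gained without either of these (1.01 and 1.13) and H2-K1 without uninjured replicate 1 (1.06). Against the saline glands in place of the uninjured ones, Tap1 was 0.18 higher at day 4 and 0.24 higher at day 5 and was called at neither. From day 3 to day 5 the median log2 difference was 0.60 and no gene was called, where 2.57% of all tested genes were called higher. At an unadjusted p under 0.05 (limma) there were 4 of the 10, Tap1, Tap2, Tapbp and Psmb8, of which Tap2 (0.97) and Tapbp (0.68) passed the adjusted test under 2-fold. Without day 3 replicate 2, Tap1 (1.15) and Tap2 (1.23) were called in that comparison, and without day 5 replicate 3 Tap2 was (1.00).

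The day 7 group rested on 1 library in the tests, and no gene was called, where 0.116% of all tested genes were called higher. At an unadjusted p under 0.05 (limma) there were 5 of the 10, B2m, Psmb8, Psmb9, Psmb10 and Nlrc5, with log2 fold changes from 0.82 to 1.91. Every one of the 10 was above all uninjured libraries, as were 27.2% of all tested genes. With the set-aside day 7 replicate 1 put back, 5 of the 10 were called (B2m 1.33, Psmb8 1.36, Psmb9 1.40, Psmb10 1.19 and Nlrc5 2.14). In that library H2-K1 measured 519 and Tapbp 473, against 299 and 192 in day 7 replicate 3.

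At day 14 the median log2 fold change against uninjured glands was 0.31 after IL-1α and 0.22 after saline, and none of the 10 genes was called in either group (1.27% and 0.669% of all tested genes were called higher). H2-K1 measured 262, 198 and 229 at day 14 after IL-1α and 239, 196 and 269 after saline, and Psmb8 measured 40.2, 35.3 and 29.6 against 33.2, 43.0 and 39.1. All 3 libraries lay above every uninjured one for 5 genes after IL-1α (Tap1, Tap2, Tapbp, Psmb9 and Nlrc5), against 11.9% of all tested genes, and for 3 after saline (Tap1, Tapbp and Psmb9), against 11%. After IL-1α, Tap1 (0.77), Tap2 (0.49) and Tapbp (0.45) had unadjusted p-values of 0.00951, 0.0414 and 0.00717, and after saline Tap1 alone was under 0.05 (0.00274). Directly between the 2 groups no gene was called (limma, 0% of all tested genes, and 682 of the 13762 at an unadjusted p under 0.05), and the median log2 difference of the 10 genes was 0.01, with none of the 10 at an unadjusted p under 0.05.

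Within a library, the ratio of an immunoproteasome subunit to the constitutive subunit it replaces (on value + 1) hardly depends on the scaling of that library. At day 1 the constitutive genes Psmb5, Psmb6 and Psmb7 were not called, with changes of -0.06, 0.24 and 0.00 on the log2 scale. Psmb8 measured 10.7% to 19.9% of Psmb5 in the 6 libraries without IL-1α (uninjured and saline) and 52.6% to 80.9% in the 5 libraries of days 1 and 2. Psmb9 measured 3.26% to 7.13% of Psmb6 without IL-1α and 10.6% to 17.96% at days 1 and 2. Psmb10 measured 3.81% to 6.54% of Psmb7 and 13.9% to 20.8% in the same libraries. None of the 3 ratios overlapped between the sets. The mean log2 ratio was higher at days 1 and 2 by 2.16 for Psmb8, 1.38 for Psmb9 and 1.92 for Psmb10 (exact permutation test, two-sided, n = 5 and 6, p = 0.00433 each, also after adjustment over the 3 tests, the smallest p these numbers allow). The test takes the 2 days as alike and the 2 kinds of control as alike. For Psmb9 to Psmb6 the saline libraries (6.54% to 7.13%) all lay above the uninjured ones (3.26% to 5.18%). The percentages come from read counts, not per length, and say how the ratio moved and not how many subunits of each kind there were.

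Later, the 3 ratios stayed above the uninjured range in every library used in the tests at days 4, 5 and 7. The mean log2 ratio of Psmb8 to Psmb5 was 1.23 above uninjured glands at day 4 and 1.69 at day 5. By day 14 it was 0.58 above after IL-1α and 0.36 above after saline, with overlap in both. The ratio of Psmb9 to Psmb6 stayed above every uninjured library in both day 14 groups, by 0.86 after IL-1α and 0.71 after saline on average, and that of Psmb10 to Psmb7 overlapped in both. Of 24 pairs of a ratio and a group, 19 had all libraries above the uninjured ones. All these pairs used the same 3 uninjured libraries, and the share for ratios of other genes was not computed. For single genes, the share of all tested genes above ran from 11% for saline to 28.3% at day 2. With 3 libraries a group the exact test cannot go below 0.10, and no single group passed it after adjustment over 21 tests (lowest adjusted p = 0.21). Psmb5, Psmb6 and Psmb7 themselves were lower at day 14 after IL-1α (log2 fold changes of -0.60, -0.42 and -0.43, limma adjusted p = 0.0201, 0.0293 and 0.0482), under 2-fold.

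**Figure D4:**
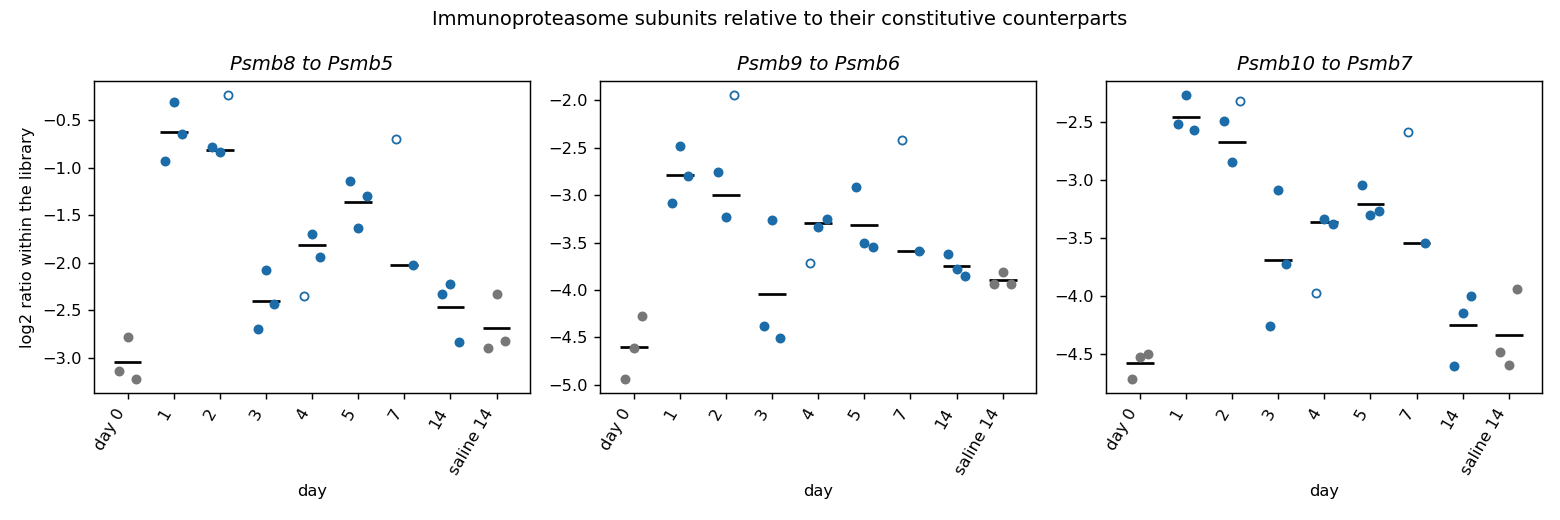
Log2 ratio, within each library and on value + 1, of Psmb8, Psmb9 and Psmb10 to Psmb5, Psmb6 and Psmb7 (y axis, a separate scale in each panel), by day (x axis); grey points are uninjured or saline glands, open points libraries set aside by the study, and bars means of the filled points. In each panel the 5 filled points of days 1 and 2 lie above the 6 grey points.

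The partners of the pathway were taken from lists. Of 17 other class I and class I-like chains tested (of 26 listed), 8 rose and 1 fell at day 1, with H2-Q4 (1.81), H2-T23 (1.79), H2-Q7 (1.65) and H2-Q1 (1.58) highest and Azgp1, a secreted class I-like glycoprotein, lowest (-2.26). Of all tested genes 5.09% were called lower at day 1. H2-Q7 (2.00) and H2-Q6 (1.51) were still called at day 3. The names of these chains share the limit given for H2-K1 and H2-D1. Of 9 proteasome activator and assembly genes 2 rose, Psme1 (1.52) and Psme2 (1.21), which encode the activator that caps the immunoproteasome. Of 7 cytosolic peptidases, which trim peptides further, none was called (limma), and at an unadjusted p under 0.05 there were 1 higher and 4 lower, with log2 fold changes between -0.99 and 0.42 over the list.

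Of 12 loading and folding partners in the endoplasmic reticulum, Erap1, which trims peptides to the length class I binds, rose (1.20). Hspa5 (-1.27), Sec61a1 (-1.20) and Uggt1 (-1.12), general chaperone and translocation genes of secretory cells, fell on the deposited scale, but they lay between -0.08 and 0.06 and were not called when libraries were scaled to their totals. That scaling put the median of all tested genes at 1.18 at day 1, in place of 0.03. Under it 60.7% of all tested genes were called higher, with all 10 class I presentation genes among them and their median 2.02 above that of all genes. At days 3, 4 and 5 it gave 8, 10 and 10 of the 10 genes called higher, where 20.7%, 27.5% and 32.8% of all tested genes were. Psmb5, Psmb6 and Psmb7 were 1.12, 1.42 and 1.18 higher under it. The counts of the other lists moved with it: 15 class I and class I-like chains rose and 1 fell, 4 proteasome activator and assembly genes, 5 loading and folding partners and 3 cytosolic peptidases rose, and none of these 3 lists held a gene called lower.

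Class II molecules, which show peptides taken up from outside to CD4 T cells, were compared at the same day. Of 9 genes tested, 6 fell on the deposited scale, H2-Ea-ps (-1.58), H2-Eb1 (-1.37), H2-Aa (-1.30), H2-Ab1 (-1.10), Cd74 (-1.07) and their regulator Ciita (-1.03), but scaled to totals these 6 lay between -0.41 and 0.11 and none was called. Ctss (cathepsin S), a lysosomal protease of antigen-presenting cells, rose (2.25). The median of the class II list was 1.11 below that of all genes with totals, and at day 2 no class II gene was called lower.

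Of 18 transcription regulators of class I genes, 8 rose at day 1, with Irf7 (3.51), Relb (2.17), Irf9 (1.95) and Stat2 (1.81) highest, and none fell. Scaled to totals 15 of the 18 were called higher, where 60.7% of all tested genes were. Rfx5, Rfxap and Rfxank, the subunits of the complex that NLRC5 works with, had log2 fold changes of 0.10, -0.16 and -0.17 and were not called, whereas Rfx5 (1.27) and Rfxap (1.00) were when scaled to totals. Of 9 interferon receptor and signalling genes tested, 4 rose, Socs3 (3.50), Usp18 (2.90), Ifngr2 (1.54) and Ifnar2 (1.08), and scaled to totals 9 of the 10 that then passed the filter did. The interferon genes themselves, Ifng, Ifnb1, Ifna4 and Ifnl2, did not pass the filter on low values. Ifng was at 0 in all 3 uninjured libraries and measured at most 1.47 at day 1.

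**Figure D5:**
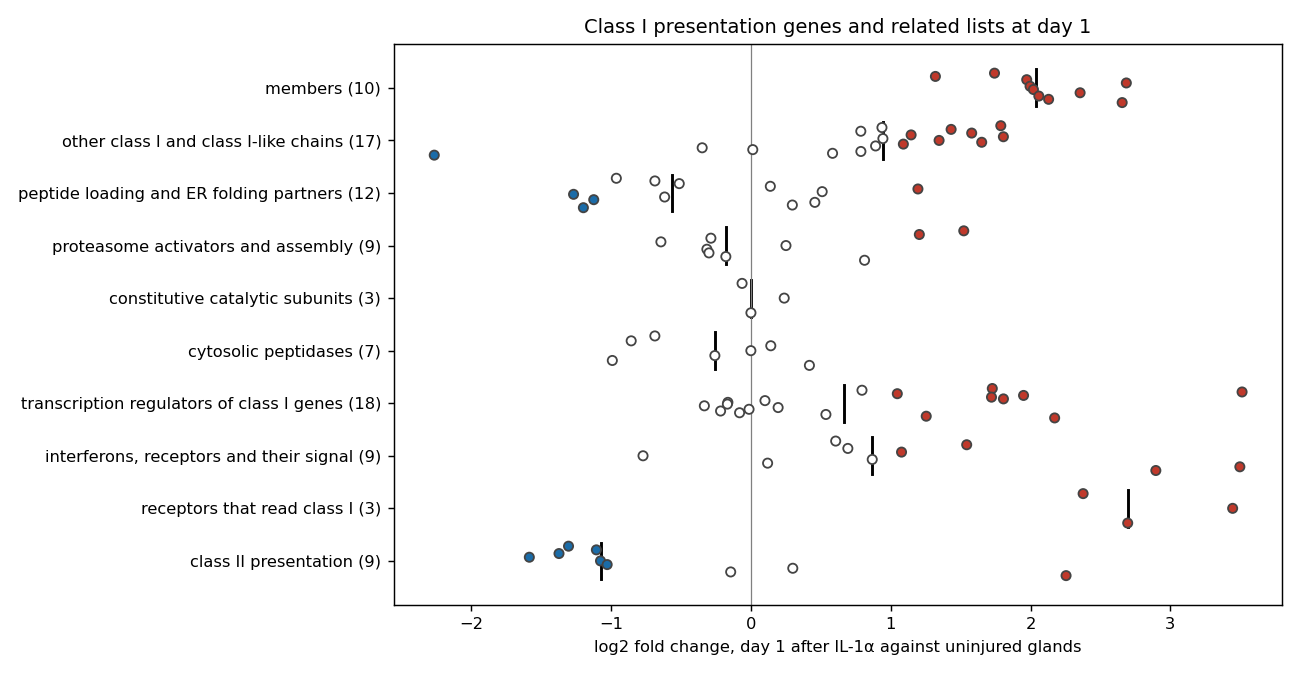
Log2 fold change at day 1 against uninjured glands (x axis) of each tested gene of the class I presentation genes and of the related lists (rows; the number of genes tested in parentheses). Red points were called higher, blue points lower, white points were not called, and black bars are list medians; all 10 class I presentation genes are red, with a median of 2.04.

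Of 12 receptors that read class I or class I-like molecules, 3 passed the filter, and all 3 rose at day 1: Klra2 (3.44), Pirb (2.69) and Klrk1 (2.38). Of all tested genes, 11.3% were called higher at day 1. Scaled to totals all 3 were called higher too, where 60.7% of all tested genes were. Cd8a, the coreceptor that defines CD8 T cells, was at 0 in 9 of the 26 libraries and measured at most 6.35 in any.

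Markers of several kinds of white blood cell rose at day 1 with the class I presentation genes. All 3 leukocyte markers, all 5 tested neutrophil markers and 6 of 7 monocyte and macrophage markers were called higher. Of the B cell markers 2 of 4 were called higher, of the NK cell markers 1 of 2 and of the T cell markers 0 of 2 (limma, also 0 at an unadjusted p under 0.05). Of 5 dendritic cell markers 1 was called higher and 1 lower, and of 3 plasma cell markers 0 and 1. Scaled to totals, 3 of 4 B cell, 3 of 3 NK cell, 3 of 3 T cell, 2 of 5 dendritic cell and 1 of 3 plasma cell markers were called higher and none lower. Of all tested genes, 60.7% were called higher on that scaling and 11.3% on the deposited scale. The summed leukocyte markers ranged from 185 to 213 in uninjured glands, from 802 to 1036 at day 1 and from 1126 to 1333 at day 2, and were higher in both day 2 libraries than in any day 1 library. For the 10 class I presentation genes the day 2 minus day 1 difference lay between -1.04 and -0.13 on the log2 scale, with Tap2 alone called. The summed neutrophil markers ranged from 1.75 to 6.50 in uninjured glands, from 1855 to 2346 at day 1 and from 676 to 856 at day 2, and Ly6g was at 0 in 20 of the 26 libraries. The 6 acinar markers of the lacrimal gland were all detected in every library, and their sum fell from between 142492 and 164363 to between 12186 and 16821 at day 1. In whole glands, more RNA per cell and more cells of a type cannot be told apart, and the part of the white blood cells in the class I values was not tested.

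Among themselves the 10 genes followed one course across the 23 libraries used in the tests. Each gene's correlation with the mean of the other 9 (Pearson, on log2 values, across libraries that share treatment and scaling, as a description) ranged from 0.81 for Nlrc5 to 0.97 for H2-K1. The genes whose course was most like the mean of the 10 were Shisa5 (r = 0.97), Lbp, Irf7, Ly6e, Gbp3, Ifitm3, Bst2, Oas1g, Znfx1 and Parp9 (r = 0.94), over the same 23 libraries. Shisa5 measured 169.5 in uninjured glands, 747 at day 1, 413 at day 2 and 228 at day 3 on average.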

How the data were processed

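RNA from whole lacrimal glands, 1 mouse a library, was sequenced from stranded polyadenylated libraries. The authors aligned read pairs to the mouse genome (mm10), estimated counts per gene with RSEM and normalized them with DESeq2. The deposited values are treated here as a signal: estimated counts divided by 1 factor per library, and not whole reads, since 75.8% to 82.3% of low values lay within 0.01 of whole multiples of the library's step. A count test was therefore not used. Totals of estimated counts, from that step, ran from 9476948 to 13103440. Gene names were found for 42462 of 43346 identifiers.

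Genes at 10 or more in at least 2 of 23 libraries were kept (13762). limma 3.58.1 in R 4.3.3, with a trend over expression, was fitted to log2(value + 1) with all 9 groups in 1 model (14 residual degrees of freedom), for 12 comparisons. A fold change on this scale understates the change of low genes. Ratios of subunits were tested with exact permutation tests (scipy 1.17.1, Python 3.11.15). The alternatives were all 26 libraries, another pseudocount, no filter, other scalings, a replicate block, no variance trend, adjusted p alone, only the groups compared, saline as control, and each library left out.

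The class I genes and the lists were chosen with earlier results of these data known. Of each list the text names, at day 1, up to 4 called genes with the largest change and up to 3 called the other way, and the 10 genes most like the class I genes by correlation. Genes named beyond that rule, such as Rfx5, Rfxap, Rfxank, Ifng, H2-Q6 and H2-M3, were chosen after their values were seen. RefSeq promoter windows (GRCm38.p6) and GENCODE M21 positions share the build of mm10.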

Additional observations from a re-analysis of the deposited data

Results flagged for a closer look

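Several differences between days under the same contrast with uninjured glands passed the test of the difference itself (limma, adjusted p at most 0.05 with at least 2-fold). Between day 2 and day 1, Tap2 differed by -1.04 on the log2 scale. Between day 3 and day 2, Tap1 differed by -1.39, Psmb8 by -1.30, Tapbp by -1.13, Tap2 by -1.12 and B2m by -1.08. The day 3 mean of each of these genes includes replicate 2, which was higher than the other 2 libraries for all 10 genes.

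The 3 libraries that the study set aside entered only the alternatives with all libraries. In day 2 replicate 3 and in day 7 replicate 1, 10 of the 10 genes lay above every uninjured and saline library, as did 30.2% and 29.6% of all tested genes. In day 4 replicate 1 the count was 6, with 17.1% of all tested genes.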

How the results depend on the processing

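The day 1 count did not move: all 10 genes were called under every alternative run. Over these 10 genes, in all comparisons and alternatives, 535 of 597 values of called genes stayed called, with 0 turned in sign. Of 1533 values of genes not called, 99 became called and 41 turned in sign, such as Tap2 at day 3 (from -0.16 to 0.51 scaled to totals) and Tap1 at day 7 (from 0.47 to -0.45 with saline as control). The following counts of called genes changed by over 1.5 times. With all 26 libraries, day 4 gave 1 in place of 4, day 7 gave 5 in place of 0, and day 2 against day 1 gave 0 in place of 1. The same 3 counts were 1, 4 and 0 with the replicate block over all libraries, and 2, 5 and 0 with all libraries but day 3 replicate 2 (both chosen after seeing the data). The latter also gave 9 for day 3 against day 2 (5) and 2 for day 5 against day 3 (0). Adjusted p alone gave 8 at day 4, 10 at day 5, 2 for day 2 against day 1, 9 for day 3 against day 2 and 2 for day 5 against day 3. Scaling to totals gave 8 at day 3, 10 at day 4, 10 at day 5, 1 for saline, 3 for day 2 against day 1, 8 for day 3 against day 2 and 1 for day 5 against day 3. Scaling to upper quartiles gave 1 for day 5 against day 3. Saline as control gave 1 at day 4 and 2 at day 5, and a fit of only the 2 groups gave 3 for day 3 against day 2. Without the filter on low values, Nlrc5 at day 5 (adjusted p = 0.0610) and B2m at day 4 (0.0568) were also lost. The cause of these changes was not tested.

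Leaving out 1 library at a time gave 10 at day 1, 7 to 9 at day 2, 0 to 1 at day 3, 0 to 4 at day 4 (5 without day 3 replicate 2), 2 to 6 at day 5, 0 at days 7 and 14, 0 to 1 for saline, 0 to 1 for day 2 against day 1, 2 to 8 for day 3 against day 2, 0 to 2 for day 5 against day 3 and 0 for day 14 against saline. The ratios of days 1 and 2 ranged from 2.06 to 2.27 (Psmb8), 1.24 to 1.47 (Psmb9) and 1.85 to 2.02 (Psmb10), and the pairs of ratio and group above uninjured glands from 19 to 21. With 1 library left in a group, it was assumed to vary like the other groups.

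Mouse numbers shared between groups did not pair the libraries: same-numbered libraries deviated together with correlations from -0.25 to 0.25 (median 0.0009, 45 pairs), and 7 of 18 libraries were closest to their own number. With the replicate block, day 1 gave 10 calls, day 2 gave 8 (H2-D1 at 0.98 lost), day 4 gave 4, day 5 gave 4 and day 3 against day 2 gave 5. Scaling by TMM was not run, because the deposited values are not counts. Genes near the 2-fold limit and genes of few reads, such as Nlrc5 and Psmb9, are the least certain.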
